A study of Mus musculus with 23 samples.

Results

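The genes described here are 10 mouse genes, the glucocorticoid receptor gene and 9 genes known for their response to glucocorticoids. They are Nr3c1, Fkbp5, Tsc22d3, Zbtb16, Klf9, Sgk1, Ddit4, Cdkn1a, Mt1, and Mt2, chosen by gene symbol out of 67228 entries in the expression tables and followed by gene ID into the count table. The data were bulk RNA-Seq libraries of femur and tibia from 23 female C57BL6/N mice at 11 weeks of age, 1 library per mouse, with most of the marrow spun out before RNA extraction. WT Control mice (n = 5) and KO Control mice (n = 6) had received saline. WT T1D mice (n = 6) and KO T1D mice (n = 6) had received streptozotocin, a toxin taken up by the insulin-producing β cells of the pancreas, at 100 mg/kg after an overnight fast, which was repeated and then given again if fed blood glucose stayed under 300 mg/dL, and they had been diabetic for 3 weeks. KO refers to mice labelled Sarm1-KO, a whole-body knockout of the NAD-consuming enzyme SARM1, which triggers axon degeneration. Streptozotocin diabetes models the loss of insulin and not the autoimmune attack of human type 1 diabetes.

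Glucocorticoids such as corticosterone are adrenal steroids of the stress and fasting response. They bind the glucocorticoid receptor, which is held in the cytoplasm by chaperones, moves to the nucleus, and binds paired DNA half-sites near genes that it switches on, while it also holds back many inflammatory genes. In bone an excess of these hormones is known to suppress osteoblasts and osteocytes and to favor marrow fat, and adrenal output is known to rise in rodents with untreated diabetes. Several of these genes also answer to other signals, since Cdkn1a is a target of p53, Ddit4 of hypoxia and amino acid shortage, and the metallothioneins of zinc. Corticosterone itself was not among the measurements used here.

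Total counts per mouse ranged from 16938101 to 20135592, and the number of counts for any of the 10 genes in any mouse ranged from 72 (Zbtb16) to 2636 (Cdkn1a). All 10 genes passed the filter on low values, 10 counts or more in 5 or more mice, which kept 14364 genes for testing. Sarm1 RNA, which is encoded on chromosome 11 from 78470273 to 78497816 of GRCm38.p6, did not separate the genotypes, with 0.340 to 1.76 CPM in WT libraries and 0.268 to 1.57 CPM in KO libraries. These are counts over the whole gene, and the genotype was taken from the labels. The mouse IDs of 1 WT Control and 3 WT T1D mice began with A17, and those of all other mice with A36 to A39, so values within the 19 mice of the second series are given where they change a call.

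The WT T1D mice A3905 and A3906 stood apart from the other 21 mice in their cell type markers. Their summed CPM of 8 osteoblast markers was 6047 and 4593, against 52758 to 117861 in the other mice, and the sum of 10 B lineage markers was 182 and 221 against 444 to 1092. Their sums were above all other mice for 14 erythroid markers (14044 and 16172 against 5310 to 11012), 9 adipocyte markers (485 and 520.1 against 129 to 252), 10 neutrophil markers (43029.8 and 39002 against 22616 to 37384), and 6 osteoclast markers (2129 and 2332 against 679.7 to 1643). The sums of 7 T cell markers (55.0 and 52.0) and 5 endothelial markers (202 and 196) were just below those of the other mice. Sums of 6 osteocyte markers (442 and 472 against 225 to 613) lay within the range of the other mice. So did those of 8 macrophage markers (1212 and 1262 against 1094 to 1454) and 9 skeletal muscle markers (3284 and 2520 against 193 to 8215). Results that rest on these libraries are given with and without them. In bulk bone, fewer cells of a type and less RNA per cell cannot be told apart.

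Compared per transcript length, the metallothioneins were the most abundant of the 10 genes and Zbtb16 the least. Over all 23 mice, the mean level was 144 ± 26.3 TPM (SD) for Mt1, 117 ± 41.9 TPM for Mt2, 78.8 ± 21.9 TPM for Cdkn1a, and 52.4 ± 15.6 TPM for Tsc22d3. A lower tier held Ddit4 (20.9 ± 8.41 TPM), Sgk1 (19.0 ± 3.16 TPM), Nr3c1 (17.04 ± 2.68 TPM), Fkbp5 (15.7 ± 5.31 TPM), and Klf9 (11.1 ± 2.37 TPM), and Zbtb16 stood at 1.56 ± 0.599 TPM. The mean ± SD of neighbours in this order overlapped, except between Tsc22d3 and Ddit4 and between Klf9 and Zbtb16. The spread between mice within WT Control was widest for Ddit4, with a coefficient of variation of 49.1%, and narrowest for Nr3c1 at 8.20%.

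The first question was whether these genes changed with diabetes in WT mice. In WT mice 8 of the 10 genes were higher and 2 lower in T1D, with a median log2 fold change of 0.36 against -0.01 over all genes tested. None of the 10 passed an adjusted p under 0.05 in edgeR's quasi-likelihood test with Benjamini-Hochberg adjustment, in which 2.33% of all genes did. The lowest adjusted p was 0.0525, for Fkbp5, and 5 of the 10 had an unadjusted p under 0.05, as did 3195 of the 14364 genes. DESeq2 called 1 of the 10, Fkbp5 (adjusted p = 0.00994), where it called 6.98% of all genes. In none of the 10 did T1D and Control mice separate without overlap, which 2.19% of all genes did in WT mice and 0.258% in KO mice. Within the second ID series (A36 to A39), edgeR called 3 of the 10, with Fkbp5 and Mt2 higher and Cdkn1a lower, among 15.5% of all genes. Of the 3 WT T1D mice in that series, 2 were A3905 and A3906. Without A3905 and A3906, 5 genes were higher and 5 lower, the median log2 fold change was -0.0033, and 0 of the 10 and 0 of all genes were called. The change of each gene is shown in the plot of log2 fold changes.

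**Figure D1:**
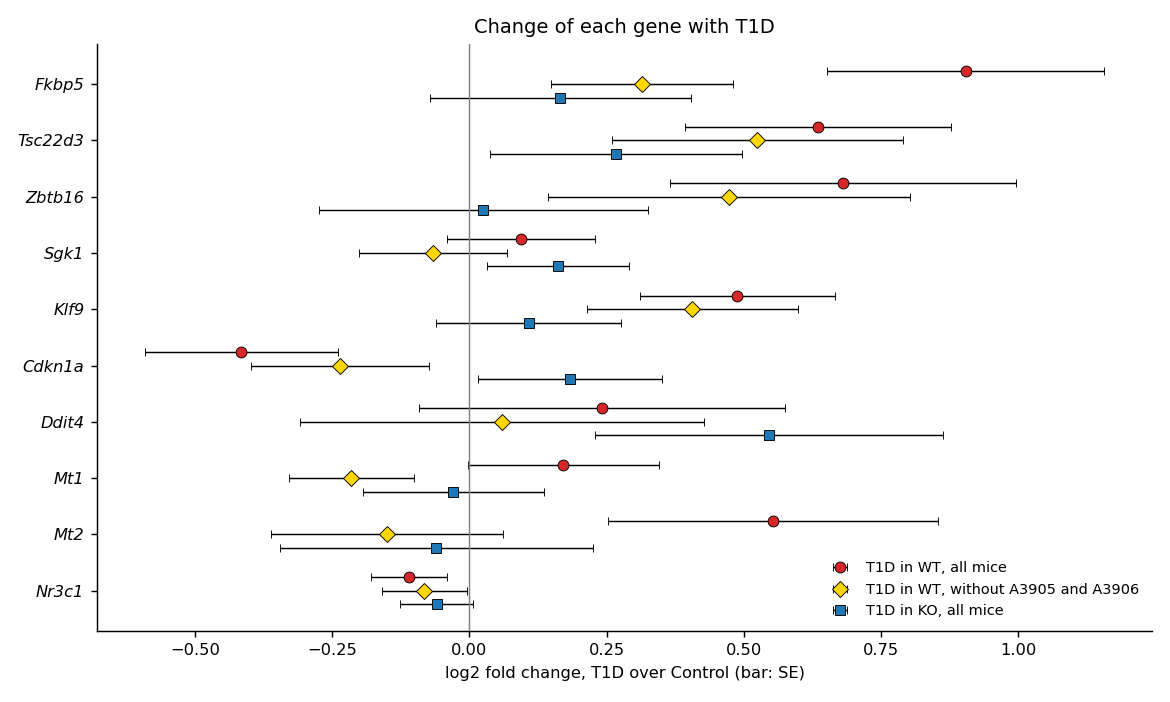
The plot gives the log2 fold change of T1D over Control for each gene, fitted with edgeR, with the SE as a horizontal bar, for all WT mice (circles), for WT mice without A3905 and A3906 (diamonds), and for KO mice (squares). Fkbp5 is at 0.90 with all WT mice and at 0.31 without the pair, whereas Tsc22d3 is at 0.64 and 0.53 and Klf9 at 0.49 and 0.41.

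The receptor gene Nr3c1 lies on chromosome 18 from 39410545 to 39519421 of GRCm38.p6. Its level in WT Control mice was 73.5, 74.8, 82.6, 83.5, and 89.5 CPM. In WT T1D mice it ranged from 68.4 to 80.9 CPM with a median of 74.7 CPM, so that 3 of 6 mice were below all WT Control mice and the groups overlapped. The log2 fold change was -0.11 ± 0.07 (SE, adjusted p = 0.359 in edgeR) in WT mice and -0.06 ± 0.07 (adjusted p = 1) in KO mice. The 95% interval in WT mice ran from -0.25 to 0.03, so that a change of this gene beyond that range was not seen at this depth and group size. In KO mice it stood between 71.7 and 89.8 CPM in Control and between 73.7 and 88.0 CPM in T1D.

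No gene of the receptor's chaperones and cofactors passed the test with all mice. Of 10 such genes tested, including the chaperones Hsp90aa1, Hsp90ab1, and Fkbp4 and the coactivators Ncoa1 and Ncoa2, 0 rose and 0 fell with T1D in WT mice, with a median log2 fold change of 0.03. Log2 fold changes were 0.16 for Ncoa1 (adjusted p = 0.155) and -0.11 for the mineralocorticoid receptor Nr3c2 (adjusted p = 0.887). Of 6 genes that supply or remove the ligand, 4 were tested and 0 were called, with 0.29 for the efflux pump gene Abcb1b (adjusted p = 0.267), 0.25 for H6pd (adjusted p = 0.227), which feeds cofactor to the enzyme that regenerates active glucocorticoid, and 0.18 for Abcb1a (adjusted p = 0.698). H6pd was called in the second ID series (0.46, adjusted p = 0.0214), where 15.5% of all genes were, and was at 0.02 without A3905 and A3906 (adjusted p = 0.976). The corticosteroid-binding globulin gene Serpina6 and the inactivating enzyme gene Hsd11b2 had too few counts to be tested. The 10 cofactor genes and 4 ligand genes had 0 calls in KO mice and in the interaction.

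Fkbp5, on chromosome 17 from 28398753 to 28486149, encodes FKBP51, a chaperone induced by the receptor that lowers the receptor's affinity for hormone. Its level in WT Control mice was 32.0, 32.1, 33.6, 36.9, and 43.8 CPM. In WT T1D mice A3906 and A3905 had 118 and 105 CPM, A1787 had 57.2, A1758 had 52.0, A1764 had 36.2, and A3909 had 32.2 CPM. Thus 4 of 6 WT T1D mice were above all WT Control mice, and the pair A3905 and A3906 was above all of the other 21 mice, whose highest value was 57.2 CPM. The mean was 35.7 ± 4.94 CPM (SD) in WT Control and 66.8 ± 36.1 CPM in WT T1D, and the log2 fold change was 0.90 ± 0.25 (SE, adjusted p = 0.0525). The pair averaged 3.13-fold over WT Control, and the other 4 mice 1.24-fold. The fitted change was 0.31 ± 0.17 without the pair (adjusted p = 0.495). Among mice of the second ID series it was 1.28 ± 0.28 (adjusted p = 0.0124). The two-sided exact permutation test of log2 (CPM + 0.5) gave p = 0.0649. In the pair, osteoblast markers were lowest and erythroid and adipocyte markers highest of all mice. With the mean log2 (CPM + 0.5) of the 14 erythroid markers as a covariate, the Fkbp5 change was 0.071 (adjusted p = 0.998). In that fit 0 of all genes were called. Summed erythroid markers did not overlap between the WT groups, at 6230 to 8582 CPM in Control and 8945 to 16172 CPM in T1D. The fit therefore cannot tell the part of these markers from that of T1D. The part of osteoblast and adipocyte markers in the Fkbp5 change was not tested.

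In KO mice the Fkbp5 level overlapped between the groups, from 28.7 to 43.8 CPM in Control with a median of 37.2 and from 34.2 to 48.6 CPM in T1D with a median of 40.8. The log2 fold change was 0.17 ± 0.24 (adjusted p = 1), with a 95% interval from -0.30 to 0.63. The interaction, which is the change in KO minus the change in WT, was -0.74 ± 0.35 (adjusted p = 0.483), so a difference in response between the genotypes was not shown. Without A3905 and A3906 the interaction was -0.15 ± 0.22 (adjusted p = 0.952).

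**Figure D2:**
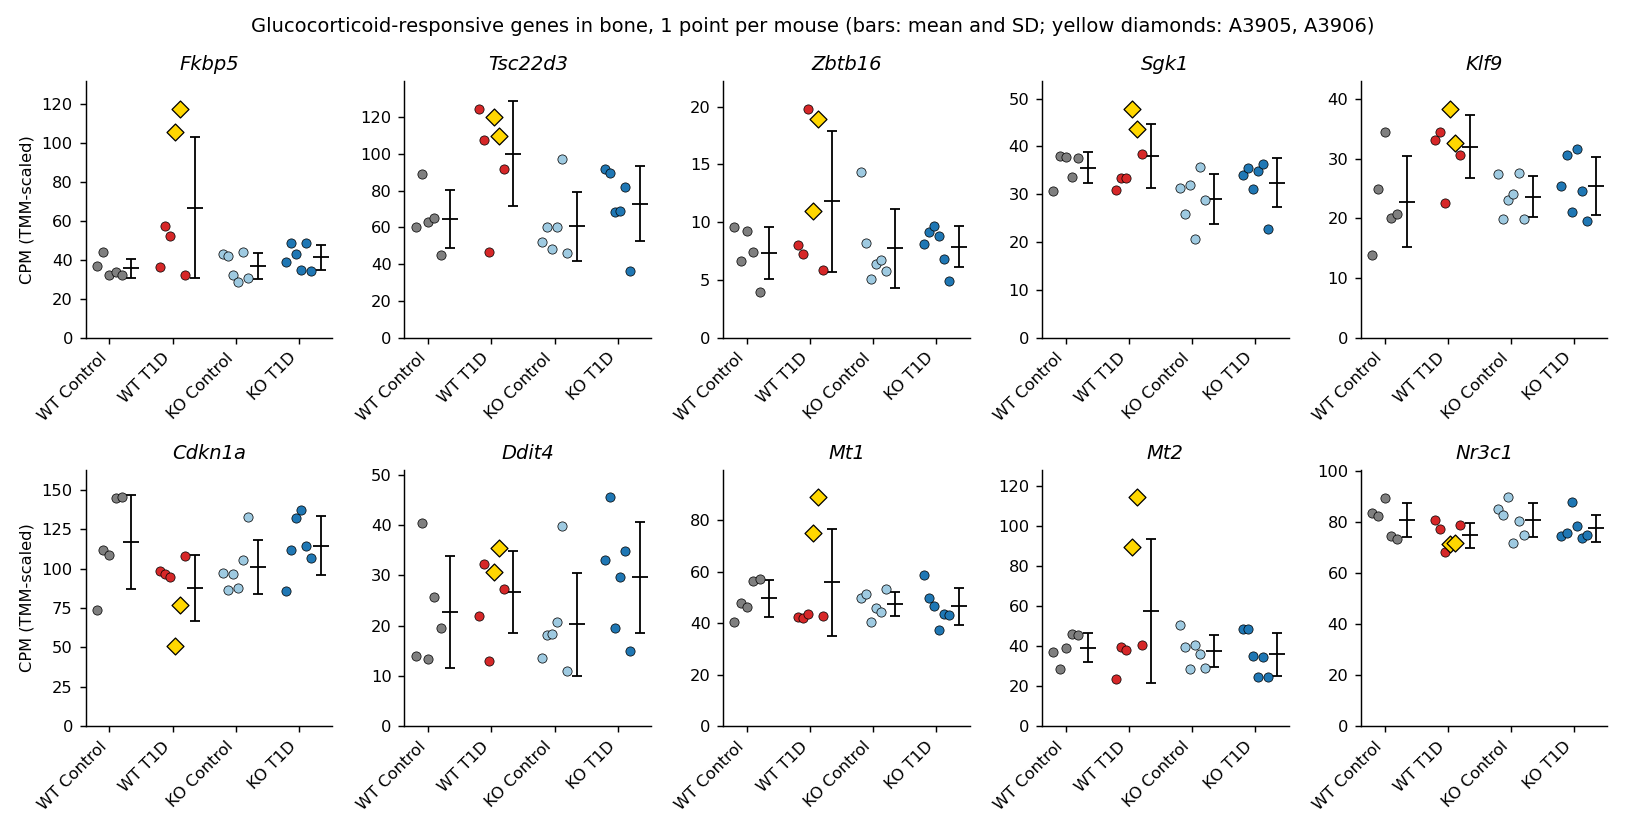
Each panel shows 1 gene, with CPM on the vertical axis from 0 and 1 point per mouse in WT Control, WT T1D, KO Control, and KO T1D. Bars give the mean and SD of a group, and yellow diamonds mark A3905 and A3906, which are the highest 2 of 23 mice for Fkbp5, Sgk1, Mt1, and Mt2 but not for Tsc22d3, Zbtb16, or Ddit4.

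Tsc22d3, on chromosome X from 140539528 to 140600522, encodes GILZ, a leucine zipper protein that carries part of the anti-inflammatory action of glucocorticoids. Its level in WT Control mice was 45.2, 60.2, 63.2, 65.0, and 88.9 CPM, and in WT T1D mice it was 46.8, 92.1, 108, 109.8, 120.0, and 125 CPM. All WT T1D mice except A1758 were above all WT Control mice. In contrast to Fkbp5, the highest mouse was A1764, and the 4 mice other than A3905 and A3906 averaged 1.44-fold over WT Control. T1D and Control in WT mice differed by 0.64 ± 0.24 on the log2 scale (SE, adjusted p = 0.127), and by 0.53 ± 0.27 without the pair (adjusted p = 0.479). Leaving out each of the 23 mice in turn gave adjusted p values from 0.0469 to 0.282. Only 1 of these was under 0.05, the fit without A1758, in which 3.75% of all genes were called. The exact permutation test gave p = 0.0541 in WT mice. In KO mice the values ranged from 46.1 to 97.1 CPM in Control and from 36.3 to 92.0 CPM in T1D, and 5 of 6 KO T1D mice were above the KO Control mean. The log2 fold change in KO mice was 0.27 ± 0.23 (adjusted p = 1), with an interaction of -0.37 ± 0.33 (adjusted p = 0.699). Without A3905 and A3906 the interaction was -0.26 ± 0.35 (adjusted p = 0.949).

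Klf9, on chromosome 19 from 23141226 to 23168129, encodes a transcription factor that is induced early by the receptor and feeds back on other targets. Its level in WT Control mice was 13.7, 20.1, 20.7, 24.9, and 34.5 CPM, and in WT T1D mice it was 22.5, 30.6, 32.6, 33.1, 34.4, and 38.4 CPM. Except for A1758, the WT T1D mice were above 4 of the 5 WT Control mice, with A3903 as the high Control mouse. On the log2 scale the change in WT mice was 0.49 ± 0.18 (SE, adjusted p = 0.110), and 0.41 ± 0.19 without A3905 and A3906 (adjusted p = 0.442). The exact permutation test gave an unadjusted p = 0.0455. KO mice had 19.8 to 27.7 CPM in Control and 19.6 to 31.5 CPM in T1D, a log2 fold change of 0.11 ± 0.17 (adjusted p = 1).

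Zbtb16, on chromosome 9 from 48651797 to 48836225, encodes PLZF, a zinc finger repressor that is among the most inducible glucocorticoid targets in many tissues. It was the least abundant of the 10 genes, at 3.97, 6.64, 7.38, 9.21, and 9.58 CPM in WT Control. In WT T1D mice the level was 19.8 CPM in A1758, 19.0 in A3906, 10.9 in A3905, 7.99 in A1764, 7.24 in A1787, and 5.84 in A3909. The 3 highest WT T1D mice were above all WT Control mice, and the other 3 lay among them. Its log2 fold change was 0.68 ± 0.32 (SE, adjusted p = 0.205) in WT mice, 0.47 ± 0.33 without A3905 and A3906 (adjusted p = 0.633), and 0.03 ± 0.30 (adjusted p = 1) in KO mice. A1758 was thus the highest WT T1D mouse for Zbtb16 and the lowest for Tsc22d3, Klf9, and Ddit4.

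Sgk1, on chromosome 10 from 21882184 to 21999903, encodes a kinase that promotes sodium uptake and cell survival and is among the first transcripts to rise after hormone. RefSeq promoter windows were used for 8 of the 10 genes, all but Nr3c1 and Zbtb16. They were 16 windows of 250 bases before and 50 after a start. These were searched on both strands for the receptor's paired half-sites, written as GNACA and TGTNC with 3 bases between them. Such a pair was in 0.475% of all 32851 windows and in 2 of the 16 windows, 1 of Sgk1 and 1 of Mt1. The Sgk1 window is shown to give the pair its context, at chr10:21993640-21993889 of GRCm38.p6 on the plus strand, the 250 bases before a start inside the gene. Capitals mark the pair. It overlaps 2 matches on opposite strands to the half-site AGAACA, which was in 19.0% of all windows.
Sgk1: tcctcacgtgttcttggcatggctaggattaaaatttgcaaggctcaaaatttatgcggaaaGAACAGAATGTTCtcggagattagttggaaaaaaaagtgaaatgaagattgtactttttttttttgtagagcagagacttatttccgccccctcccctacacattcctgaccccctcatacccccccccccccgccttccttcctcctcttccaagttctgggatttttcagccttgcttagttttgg

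The Sgk1 level in WT Control mice was 30.7, 33.6, 37.7, 37.8, and 38.0 CPM. WT T1D mice had 30.9, 33.3, 33.4, 38.5, 43.7, and 47.9 CPM, with A3905 and A3906 the highest of all mice and the other 4 within or just above the Control range. For Sgk1 the log2 fold change was 0.09 ± 0.14 (SE, adjusted p = 0.730), and -0.07 ± 0.13 without the pair (adjusted p = 0.910), so its direction rests on these mice. In KO mice it ranged from 20.6 to 35.7 CPM in Control and from 22.8 to 36.3 CPM in T1D, with a log2 fold change of 0.16 ± 0.13 (adjusted p = 1). Among Control mice, Sgk1 was lower in KO than in WT by 0.29 ± 0.14 on the log2 scale (adjusted p = 0.999), and 3 of 6 KO Control mice were below all WT Control mice. For that comparison 0 of the 10 genes and 0.0278% of all genes were called.

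Ddit4, on chromosome 10 from 59949675 to 59951770, encodes REDD1, which restrains mTORC1, the kinase complex that drives growth. It was at 13.4, 14.0, 19.6, 25.6, and 40.4 CPM in WT Control and at 12.96, 21.8, 27.3, 30.6, 32.3, and 35.4 CPM in WT T1D. The groups overlapped over nearly their whole range, and the highest WT mouse was A3767, a Control mouse. Its log2 fold change was 0.24 ± 0.33 (SE, adjusted p = 0.716) in WT mice and 0.55 ± 0.32 (adjusted p = 1) in KO mice, where it went from a median of 18.2 CPM in Control to 31.3 CPM in T1D. This was the largest change among the 10 genes in KO mice. In WT mice the change was 0.06 ± 0.37 without A3905 and A3906 (adjusted p = 0.977). Of 11 other targets of the amino acid and hypoxia responses that share Ddit4, 0 were called with T1D in WT mice, with 1.61 for Trib3 (adjusted p = 0.138), 0.53 for Asns (adjusted p = 0.0911), and 0.43 for Ddit3 (adjusted p = 0.135). In the second ID series 4 of the 11 rose, among 15.5% of all genes, namely Trib3 (2.32, adjusted p = 0.0171), Asns (0.90, adjusted p = 0.0119), Ddit3 (0.72, adjusted p = 0.0237), and Atf4 (0.30, adjusted p = 0.0303), the gene of the factor that drives the amino acid response. When A3905 and A3906 were left out, 0 were called, with -0.47 for Trib3 (adjusted p = 0.721), 0.13 for Asns (adjusted p = 0.715), 0.12 for Ddit3 (adjusted p = 0.797), and 0.09 for Atf4 (adjusted p = 0.740). In KO mice 9 of these 11 were lower, with 0 calls.

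Cdkn1a, on chromosome 17 from 29090979 to 29100722, encodes p21, an inhibitor of cyclin-dependent kinases. It was the one induced target among the 10 genes that was lower in WT T1D with all mice. Its level in WT Control mice was 73.7, 109, 112, 145, and 145 CPM, and in WT T1D mice it was 51.0, 76.9, 94.8, 96.6, 98.6, and 108 CPM. The WT Control mean of 117 ± 29.8 CPM (SD) lay above all 6 diabetic mice, and the groups overlapped through A1757, the lowest Control mouse. Fitted over all mice, the log2 fold change was -0.42 ± 0.18 (SE, adjusted p = 0.165), and -0.24 ± 0.16 without A3905 and A3906 (adjusted p = 0.621). Restricted to the second ID series it was -0.69 ± 0.21 (adjusted p = 0.0317). In KO mice it was 0.18 ± 0.17 (adjusted p = 1), at 86.3 to 132 CPM in Control and 85.8 to 137 CPM in T1D, and the interaction was 0.60 ± 0.24 (adjusted p = 0.479), the lowest adjusted p of the 10 genes for that term. Without A3905 and A3906 the interaction was 0.41 ± 0.21 (adjusted p = 0.927).

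Among other p53 targets and Trp53, the gene of p53 itself, none passed the test either. Of 12 tested, 9 were higher and 3 lower with T1D in WT mice and 0 were called, at a median log2 fold change of 0.11, where 48.1% of all genes were higher. Values were 0.24 for Aen (adjusted p = 0.290), 0.20 for Bbc3 (adjusted p = 0.498), and 0.16 for Sesn2 (adjusted p = 0.394).

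The metallothionein genes Mt2 and Mt1 lie side by side on chromosome 8, Mt2 from 94172618 to 94173567 and Mt1 from 94178883 to 94180327, with 5315 bases between them. They encode small cysteine-rich proteins that bind zinc and copper, and are switched on by metals through the factor MTF1 and by glucocorticoids. Because the transcripts are alike, the counting of reads could have divided reads between these paralogs. The 250 bases before each start are shown to give the motif matches their context, at chr8:94172368-94172617 for Mt2 and chr8:94178839-94179088 for Mt1, GRCm38.p6, plus strand. The Mt2 window held no match to the receptor's paired half-sites. Most of the Mt1 window lies inside the gene bounds given above, since the RefSeq start used for it is within them. Capitals mark matches on either strand to the metal response core, TGCACNC or TGCGCNC, and in Mt1 also the receptor's paired half-sites, from 94 to 82 bases before the start. The metal core was found in 25.7% of all promoter windows and at least 3 times in 1.97% and 4 times in 0.517%. Mt2 had 4 matches and Mt1 had 3, counting those in the 50 bases after the start that are not shown. The marked motifs do not overlap.
Mt2: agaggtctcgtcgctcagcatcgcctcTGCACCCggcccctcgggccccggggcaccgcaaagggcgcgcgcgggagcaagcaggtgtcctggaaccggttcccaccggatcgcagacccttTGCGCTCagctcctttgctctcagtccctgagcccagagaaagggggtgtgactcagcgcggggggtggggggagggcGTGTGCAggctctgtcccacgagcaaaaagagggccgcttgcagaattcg
Mt1: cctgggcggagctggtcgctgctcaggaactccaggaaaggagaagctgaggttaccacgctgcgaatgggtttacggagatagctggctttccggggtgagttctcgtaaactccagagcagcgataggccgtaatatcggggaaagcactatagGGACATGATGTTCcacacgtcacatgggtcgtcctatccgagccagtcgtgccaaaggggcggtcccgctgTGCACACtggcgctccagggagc

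Both genes were above all WT Control mice in A3905 and A3906 and in no other WT T1D mouse. Mt2 was at 28.5, 37.0, 39.1, 45.3, and 46.0 CPM in WT Control. It was at 114 CPM in A3906 and 89.4 CPM in A3905, and at 23.5, 37.9, 39.6, and 40.4 CPM in the other WT T1D mice. Mt1 was at 40.4, 46.3, 47.8, 56.5, and 57.3 CPM in WT Control. It was at 89.0 CPM in A3906 and 75.1 CPM in A3905, and the other WT T1D mice lay close together between 42.2 and 43.7 CPM. The pair averaged 2.60-fold over WT Control for Mt2 and 1.65-fold for Mt1, and the other 4 mice averaged 0.902-fold and 0.863-fold. The log2 fold change of all WT T1D mice was 0.55 ± 0.30 (SE, adjusted p = 0.285) for Mt2 and 0.17 ± 0.17 (adjusted p = 0.593) for Mt1. Without the pair both were lower in T1D, at -0.15 ± 0.21 (adjusted p = 0.845) and -0.21 ± 0.11 (adjusted p = 0.500). In the second ID series, Mt2 was higher by 1.05 ± 0.29 (adjusted p = 0.0248).

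In KO mice Mt2 ranged from 28.8 to 50.4 CPM in Control and from 24.4 to 48.4 CPM in T1D, and Mt1 from 40.7 to 53.2 CPM and from 37.5 to 58.8 CPM. Their log2 fold changes in KO mice were -0.06 ± 0.29 and -0.03 ± 0.17 (adjusted p = 1 for both). Of 6 tested genes of zinc transport and the metal response, 0 were called with T1D in WT mice, with 0.81 for the zinc importer gene Slc39a4 (adjusted p = 0.124), -0.42 for Slc39a14 (adjusted p = 0.0816), and -0.35 for Slc39a10 (adjusted p = 0.174). In the second ID series 2 of the 6 fell, the zinc importer genes Slc39a10 (-0.64, adjusted p = 0.0222) and Slc39a14 (-0.54, adjusted p = 0.0393), among 15.5% of all genes. Fitted without A3905 and A3906, they were at -0.12 (adjusted p = 0.728) and -0.32 (adjusted p = 0.429).

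**Figure D3:**
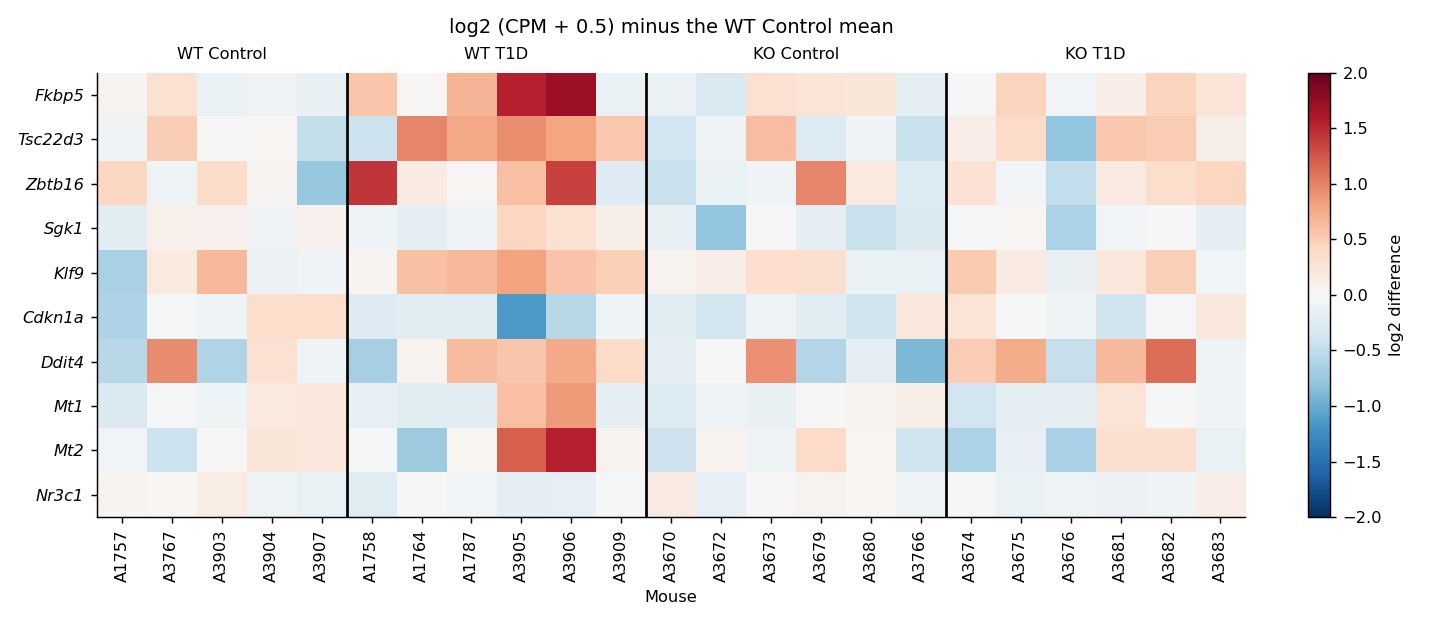
The map gives log2 (CPM + 0.5) of each gene (rows) in each mouse (columns, by group) minus the mean of the WT Control mice, from blue (lower) to red (higher) with a limit of 2 in either direction. Fkbp5 and Mt2 are darkest in A3905 and A3906, while the WT T1D mice other than A1758 share the higher Tsc22d3 and Klf9.

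The second question was whether these genes changed with diabetes in Sarm1-KO mice, and whether the change differed from that in WT mice. With T1D in KO mice, 7 of the 10 genes were higher and 3 lower, the median log2 fold change was 0.13, and 0 of the 10 and 0% of all genes passed an adjusted p under 0.05 in edgeR, with 0 of the 10 and 452 of all genes at an unadjusted p under 0.05. The interaction was called for 0 of the 10 and 0% of all genes, with 2 of the 10, Fkbp5 and Cdkn1a, and 1467 of all genes at an unadjusted p under 0.05. Both shares were also 0% in the second ID series. DESeq2 gave adjusted interaction p values of 0.433 for Fkbp5 and 0.417 for Cdkn1a. The exact permutation test of the KO mice gave p values from 0.136 (Ddit4) to 0.775 (Zbtb16).

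Compared directly among diabetic mice, 7 of the 10 genes were lower in KO than in WT and 3 higher, and 0 were called, where 0.0905% of all genes were. The lowest adjusted p was 0.185, for Fkbp5, at a log2 difference of -0.70 ± 0.24 (SE). Mt2 differed by -0.68 ± 0.29 (adjusted p = 0.240), Zbtb16 by -0.58 ± 0.30 (adjusted p = 0.317), Tsc22d3 by -0.46 ± 0.23 (adjusted p = 0.309), Klf9 by -0.33 ± 0.17 (adjusted p = 0.317), and Cdkn1a by 0.39 ± 0.17 (adjusted p = 0.252). When only the second ID series was fitted, 3 of the 10 were called, Fkbp5 (-1.06 ± 0.26, adjusted p = 0.0183), Mt2 (-1.19 ± 0.26, adjusted p = 0.0146), and Mt1 (-0.58 ± 0.16, adjusted p = 0.0330), among 10.8% of all genes. A3905 and A3906 were 2 of the 3 WT T1D mice in that subset. Without them the difference was -0.11 ± 0.16 (adjusted p = 0.910) for Fkbp5, 0.02 ± 0.20 (adjusted p = 0.990) for Mt2, and 0.12 ± 0.11 (adjusted p = 0.856) for Mt1. In that fit it was -0.38 (adjusted p = 0.841) for Zbtb16, -0.35 (adjusted p = 0.822) for Tsc22d3, -0.25 (adjusted p = 0.827) for Klf9, and 0.20 (adjusted p = 0.828) for Cdkn1a. These comparisons share the WT T1D mice with those of T1D in WT mice.

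Correlations across mice tested whether the genes rose and fell together. Of 45 pairs of the 10 genes, 16 had a Pearson correlation of log2 (CPM + 0.5) over 23 mice with an adjusted p under 0.05 (permutation test with 100000 resamples, Benjamini-Hochberg over 45 pairs), 14 of them positive, and 6 of these also passed with Spearman's rho. After the group means were taken out 2 pairs passed, and without A3905 and A3906 1 pair passed, Tsc22d3 with Ddit4. For that pair r was 0.760 and rho 0.745 (permutation p = 3e-05 and 5e-05, adjusted p = 0.000675 and 0.00202). It was 0.825 without the 2 mice farthest from the Tsc22d3 median, 0.803 within groups, 0.814 within the A36 to A39 mice, and 0.745 without A3905 and A3906.

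Mt1 and Mt2 were correlated with r = 0.859 and rho = 0.686 (permutation p = 1e-05, the smallest the resamples can give, and 0.00039, adjusted p = 0.00045 and 0.00585). Within groups r was 0.849 and within the A36 to A39 mice 0.890. Without A3905 and A3906, which were also the 2 mice farthest from the Mt1 median, it was 0.590. For Fkbp5 and Mt2 r was 0.751 but rho was 0.265 (permutation p = 0.00082 and 0.220, adjusted p = 0.00922 and 0.430), and r fell to 0.200 without those mice, so that this relation rests on them.

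**Figure D4:**
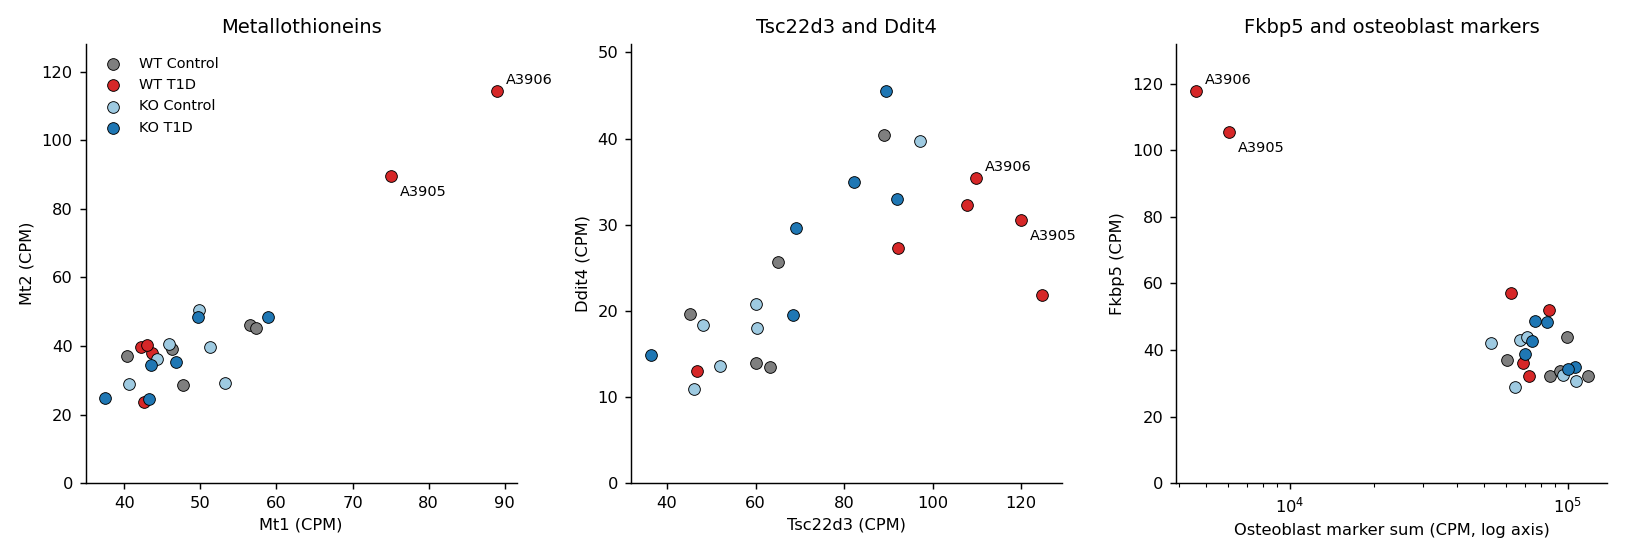
Points are mice, colored by group. Mt2 against Mt1 (left, CPM) and Fkbp5 (CPM) against the summed CPM of 8 osteoblast markers on a log axis (right) show A3905 and A3906 far from the other 21 mice, whereas Ddit4 against Tsc22d3 (middle, CPM) rises across mice of all 4 groups.

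Among the 13306 genes with a mean of at least 1 CPM, the 3 whose level over 23 mice was most like that of Tsc22d3 were Per1 (Pearson's r = 0.912), Plagl2 (0.787), and Nup153 (0.763). Per1 is a core gene of the circadian clock and a direct target of the receptor. It ranged from 28.5 to 81.4 CPM in WT Control and from 32.6 to 136 CPM in WT T1D, with a median of 35.9 and 104 CPM, and from 26.7 to 87.0 and from 33.9 to 89.2 CPM in KO Control and KO T1D. Its log2 fold change was 1.01 (adjusted p = 0.101) in WT mice and 0.68 (adjusted p = 1) in KO mice. Its correlation with Tsc22d3 stayed at 0.892 without A3905 and A3906.

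The genes most like Fkbp5 were Klf13 (r = 0.912), Hopx (0.912), and the kinase gene Pim1 (0.905). Each of these fell without A3905 and A3906, to 0.663, 0.674, and 0.679 over 21 mice. For Mt1 they were Sema6b (0.860), Mt2 (0.859), and Acvrl1 (0.853), at 0.575, 0.590, and 0.551 without the pair. For Zbtb16 they were Ubr2 (0.821), Acsl1 (0.751), and Zdhhc3 (0.748), at 0.750, 0.728, and 0.751 without the pair. These genes were picked as the highest of all genes, so no p is given.

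Of the other genes known to be induced by glucocorticoids, 5 of 27 tested rose in WT T1D mice. Among the 27, 25 were higher and 2 lower, with a median log2 fold change of 0.37 against -0.01 over all genes, and 0 fell at an adjusted p under 0.05 in edgeR, where 2.33% of all genes were called. Pck1, which encodes the rate-limiting enzyme of gluconeogenesis, rose by 3.30 ± 0.86 (SE, adjusted p = 0.0476), with 0 to 0.622 CPM in WT Control and 0.344 to 11.2 CPM in WT T1D, so that the groups overlapped at low levels. Angptl4, which encodes an inhibitor of lipoprotein lipase, rose by 1.31 ± 0.24 (adjusted p = 0.0209), and its groups did not overlap, at 22.1 to 33.99 CPM in Control and 48.1 to 86.9 CPM in T1D. Crispld2 rose by 1.03 ± 0.24 (adjusted p = 0.0440), Txnip, whose product restrains glucose uptake, by 0.57 ± 0.12 (adjusted p = 0.0367), and Glul, which encodes glutamine synthetase, by 0.45 ± 0.10 (adjusted p = 0.0367). For Hif3a the change was 1.69 ± 0.47 on the log2 scale, just short of the threshold (adjusted p = 0.0524), with 0.771 to 2.36 CPM in WT Control and 1.25 to 12.9 CPM in WT T1D, and it was 0.54 without A3905 and A3906 (adjusted p = 0.597).

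In KO mice 18 of the 27 were higher, the median was 0.02, and 0 were called, as in the interaction. Without A3905 and A3906, 21 of the 27 were higher in WT T1D, the median was 0.21, and 0 were called, and within the A36 to A39 mice 11 rose and 0 fell, among 15.5% of all genes. Angptl4 kept most of its change without the pair (1.17, adjusted p = 0.109), whereas Pck1 went to 1.52 (adjusted p = 0.452) and Crispld2 to 0.56 (adjusted p = 0.308), Txnip to 0.35 (adjusted p = 0.286), and Glul to 0.31 (adjusted p = 0.286). Angptl4 and Pck1 are also fat cell genes, and the summed CPM of 9 adipocyte markers was 147 to 214 in WT Control and 221 to 520.1 in WT T1D. The part of these cells in the result was not tested. DESeq2 called 8 of these genes, and 6.98% of all genes. With 1 mouse dropped in turn, the calls ranged from 0 to 8, with 0 without A3767, A3903, or A3907 and 1 without A3904, A3905, or A3906. In the fits that each left out 1 of these named mice, 0% to 0.0907% of all genes were called, against 8.8% without A3909. An erythroid marker covariate gave 0 calls, of these genes and of all genes. Erythroid marker sums were 6230 to 8582 CPM in WT Control and 8945 to 16172 CPM in WT T1D, without overlap. The fit with this covariate therefore cannot tell it from T1D.

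**Figure D5:**
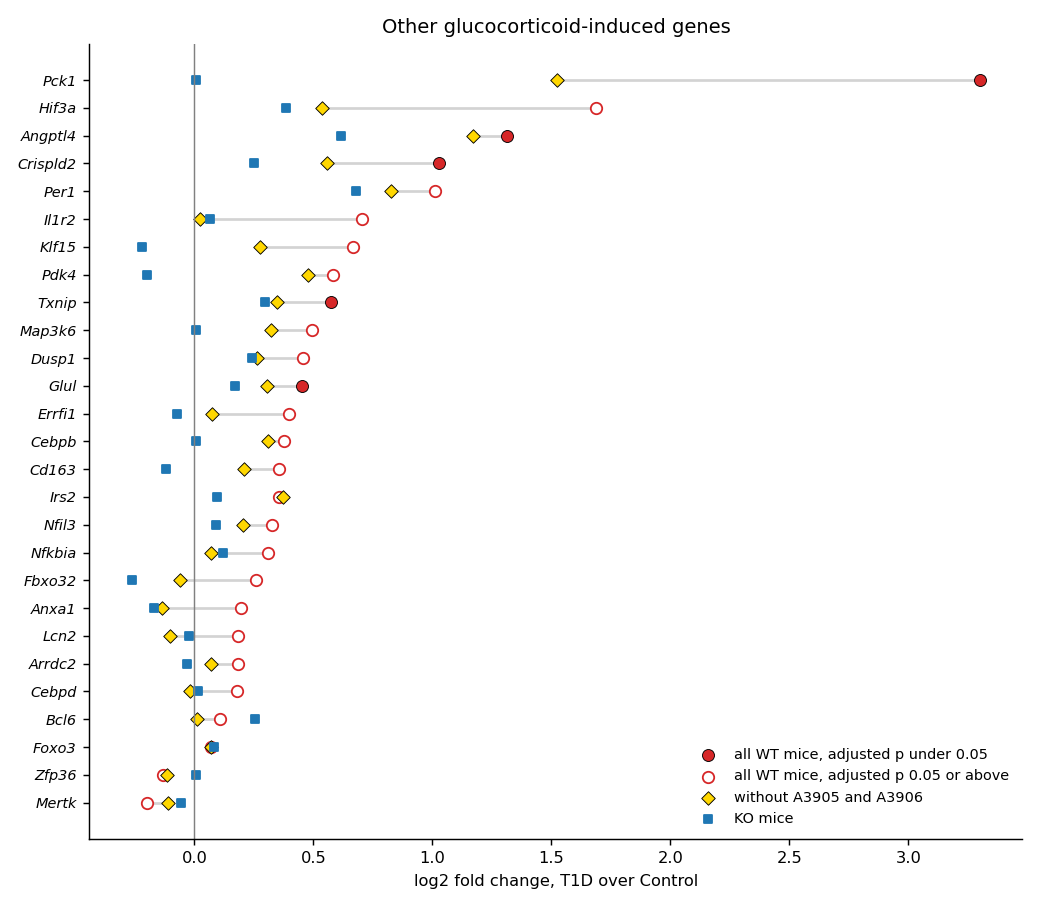
Each row is 1 of the 27 other induced genes, with the log2 fold change of T1D over Control on the horizontal axis for all WT mice (circles, filled for the 5 with an adjusted p under 0.05), WT mice without A3905 and A3906 (diamonds), and KO mice (squares). Circles lie to the right of 0 for 25 of the 27 genes, and diamonds for 21.

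Inflammatory genes that glucocorticoids are known to repress were divided. Of 11 tested, 6 were higher and 5 lower in WT T1D mice, with a median log2 fold change of 0.03, and 2 fell, both chemokine genes, where 2.33% of all genes were called. Cxcl10 fell by 1.59 ± 0.37 on the log2 scale (adjusted p = 0.0418), from 4.83 to 15.8 CPM in WT Control to 0.906 to 4.93 CPM in WT T1D. Ccl2 fell by 1.55 ± 0.41 (adjusted p = 0.0494), from 1.095 to 2.76 CPM to 0.226 to 0.803 CPM, at low levels. Nos2 was at -0.45 ± 0.28 (adjusted p = 0.349). In the second ID series Cxcl10 and Ccl2 fell, and 2 genes rose, Mmp9, which encodes a matrix-degrading protease (0.62, adjusted p = 0.0374), and the adhesion molecule gene Vcam1 (0.49, adjusted p = 0.0175), among 15.5% of all genes. Mmp9 and Vcam1 were at -0.42 (adjusted p = 0.288) and 0.22 (adjusted p = 0.392) without A3905 and A3906. Without A3905 and A3906 the log2 fold changes of Cxcl10 and Ccl2 were -1.24 (adjusted p = 0.286) and -1.31 (adjusted p = 0.309), and in KO mice they were -0.59 and -1.40 (adjusted p = 1 for both). With single mice dropped, the calls ranged from 0 to 4, with 0 without any of A3767, A3903, A3904, A3907, A1787, A3905, or A3906, among others. In the fits that each left out 1 of these named mice, 0% to 0.202% of all genes were called, against 8.8% without A3909.

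Of the osteoblast genes known to respond to glucocorticoid excess, 2 of 13 tested fell in WT T1D mice, where 2.33% of all genes were called. Among the 13, 12 were lower and 1 higher, with a median log2 fold change of -0.66. The list pools genes lowered and genes raised by such excess, so 12 lower is not a count of changes in its direction. Dkk1, which encodes a secreted Wnt inhibitor that glucocorticoid excess is known to raise, fell by 0.96 ± 0.19 (adjusted p = 0.0236), and all 6 WT T1D mice (6.04 to 14.8 CPM) were below all WT Control mice (16.2 to 23.1 CPM). Runx2, the master regulator of the osteoblast lineage, fell by 0.66 ± 0.16 (adjusted p = 0.0451). Col1a1, the main collagen gene of bone, was at -0.91 ± 0.49 (adjusted p = 0.282) and Sp7 at -0.82 ± 0.32 (adjusted p = 0.136). Without A3905 and A3906, 12 of the 13 were still lower, at a median of -0.34, and 0 were called, with -0.78 for Dkk1 (adjusted p = 0.177) and -0.42 for Runx2 (adjusted p = 0.286). In the second ID series 5 fell, Dkk1, Runx2, Alpl, Tnfrsf11b, and Wnt10b, among 15.5% of all genes. With single mice dropped, 0 to 3 genes were called, with 0 without any of A3767, A3903, A3904, A3907, A3905, or A3906. In the fits that each left out 1 of these named mice, 0% to 0.0907% of all genes were called, against 8.8% without A3909. With the erythroid covariate, which cannot be told from T1D in WT mice, 0 genes of either of these lists were called. In KO mice 9 of the 13 were higher, at a median of 0.05, and 0 were called. Summed osteoblast markers in A3905 and A3906 were below those of all other mice, but 6 of the 8 markers are also among the 13 genes, so that sum is not separate from the list.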

How the data were processed

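The authors deposited RSEM expected counts rounded to whole numbers, not normalized, and TPM values calculated by the sequencing provider. Polyadenylated RNA had been sequenced on the DNBSEQ platform after dUTP strand marking, and the submitters' processing notes name HISAT, Bowtie2, and GRCm38.p6. Expected counts were fitted in R 4.3.3 with edgeR 4.0.16 (TMM scaling, 4 group means, quasi-likelihood test) after a filter of at least 10 counts in at least 5 mice. CPM values are TMM-scaled. A pseudocount of 0.5 was used for log2 values, and adjusted p values are Benjamini-Hochberg over all genes tested. DESeq2 1.42.0 and limma 3.58.1 on log2 (TPM + 1) and log2 (TPM + 0.1) were alternatives. The fit was tested on simulated data. Gene positions and promoter sequences came from RefSeq (GRCm38.p6).

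The 10 genes and all lists of other genes were chosen with earlier results of these data known. Genes were named if they were among the 10, among the 3 largest changes of a list with T1D in WT mice at a mean of at least 1 CPM, called in a list, or among the 3 most like Fkbp5, Tsc22d3, Zbtb16, or Mt1. Other genes of the lists are named only as examples. A gene that met this rule is not reported here. The labels do not say whether mice shared a litter or cage, and p values of group differences set them against the spread between these mice.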

Additional observations from a re-analysis of the deposited data

Results flagged for a closer look

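Each of the 10 genes was checked in each of the 4 groups for a mouse whose gap to its nearest neighbour took up an unusually large share of the group's range (Dixon's 95% limit). Of 40 such checks 4 were exceeded, where chance gives about 1 in 20. In KO Control, A3673 had 97.1 CPM of Tsc22d3 (next highest 60.2) and 39.8 CPM of Ddit4 (next highest 20.7). Also in KO Control, A3679 had 14.4 CPM of Zbtb16 (next highest 8.16). In KO T1D, A3683 had 88.0 CPM of Nr3c1 (next highest 78.7). A3905 and A3906 were not marked by this check, since each has the other as a near neighbour.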

How the results depend on the processing

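Of the 10 genes, the number called with T1D in WT mice was 0, and it was 1 with DESeq2 and with a filter of 1 CPM in 5 mice (Fkbp5 in both), 2 with limma on log2 (TPM + 1) and on log2 (TPM + 0.1) (Cdkn1a and Nr3c1, both lower), and 3 within the A36 to A39 mice. Of all genes, 2.33% were called in the main fit, 6.98% with DESeq2, and 3.25% with the 1 CPM filter. On the TPM scales 35.9% and 36% of all genes were called, at a median log2 fold change of -0.24 and -0.29. Within the A36 to A39 mice 15.5% were called. Leaving out each mouse in turn gave from 0 to 2 (Fkbp5 without A1764, A3909, or A1758, and Tsc22d3 without A1758). Of all genes, 6.72% were called without A1764, 8.8% without A3909, and 3.75% without A1758. Among diabetic mice, 3 genes differed between the genotypes within the A36 to A39 mice, where 10.8% of all genes did. In KO mice, in the interaction, and among Control mice, the count stayed at 0 under each alternative. The 16 correlated pairs became 2 after the group means were taken out and 1 without A3905 and A3906.

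The log2 fold change with T1D in WT mice turned for Sgk1 (-0.20, -0.21, -0.062, and -0.066) and Mt1 (-0.17, -0.17, -0.10, and -0.21) on both TPM scales, with an erythroid marker covariate, and without A3905 and A3906. With the covariate it also turned for Cdkn1a (0.080), Ddit4 (-0.44), and Mt2 (-0.28), Fkbp5 went from 0.90 to 0.071, and 0 of all genes were called. Erythroid marker sums did not overlap between the WT groups, so the fit with this covariate cannot tell it from T1D. Mt2 turned without A3905 and A3906 too (-0.15). In KO mice Zbtb16 turned with library totals (-0.023) and the covariate (-0.066). The interaction turned for Sgk1 within the A36 to A39 mice (-0.094), for Mt1 on both TPM scales (0.083 and 0.084), with the covariate (0.016), and without A3905 and A3906 (0.18), and for Mt2 with the covariate (0.093) and without that pair (0.087). Among diabetic mice, KO against WT turned for Ddit4 within the A36 to A39 mice (-0.084) and, without A3905 and A3906, for Mt1 (0.12) and Mt2 (0.022). Leaving out each mouse in turn gave -0.076 to 0.29 for Zbtb16, -0.11 to 0.020 for Mt1, and -0.16 to 0.043 for Mt2 in KO mice, -0.020 to 0.14 for Sgk1 and -0.011 to 0.61 for Ddit4 in the interaction, and -0.019 to 0.27 for Ddit4 among diabetic mice. The causes were not tested. No paired analysis was possible because the groups share no replicate numbers. Counts over the lists of other genes under the alternatives, and correlations without A3905 and A3906, were added after seeing the data.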
